A study of Homo sapiens with 6 samples.

Results

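The transcription factor NRF2 (gene NFE2L2), its inhibitor KEAP1 and 7 antioxidant genes that NRF2 is known to control were followed in human cells given the compound B35. The 9 genes were chosen by name, from their known place in the pathway, out of 58735 gene identifiers in the deposited tables. They and the gene lists further below were chosen with earlier results of these data known, so their shares of changed genes are descriptions only. Of the 9 genes 8 passed the filter on low counts and were among the 14773 genes tested, and GPX2 did not pass it. PRDX1 and TXNRD1 fell with B35, whereas NFE2L2, KEAP1, NQO1, SRXN1, HMOX1 and OSGIN1 did not pass the test. Of those that did not pass, NFE2L2, KEAP1 and NQO1 had lower means with B35, and the groups overlapped for NFE2L2 and KEAP1.

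KEAP1 holds NRF2 in the cytoplasm and hands it to a ubiquitin ligase built on CUL3, so that NRF2 is short-lived in unstressed cells. Oxidants and electrophiles modify cysteines of KEAP1, NRF2 then escapes degradation, pairs with a small MAF protein and binds antioxidant response elements near its target genes. Its targets include enzymes that reduce quinones, peroxides and oxidised thioredoxin, and in many lung cancers the pathway is switched on by mutation of KEAP1 or NFE2L2.

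RNA sequencing was done on cells labelled A549, an established human lung adenocarcinoma line, with WT given as the genotype of both groups. The control group is 3 libraries of untreated cells, and the B35 group is 3 libraries of cells that received B35 at 2 µM for 72 h. By the series title B35 inhibits LSD1, a histone demethylase, and the comparison asks how it alters gene expression. All cells grew in DMEM with serum, and the labels name no solvent for the untreated cells. Nothing in them tells if libraries within a group stem from different cultures. The p-values therefore describe only the spread among these libraries, which may be technical.

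The libraries held 17141478 to 18530670 counts each. The first principal component separated the groups and carried 48.5% of the variance, and the next, with 20.9%, set B35 replicate 1 apart. Mitochondrial transcripts took 5.196% of the counts in B35 replicate 1 and 3.52% to 4.35% in the other 5 libraries. Over all genes, 15.4% of those tested changed (quasi-likelihood test of edgeR, p adjusted by Benjamini-Hochberg, threshold 0.05), 8.82% being higher and 6.59% lower with B35.

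The label A549 was checked against genes that this line is known to lack or to express, which were picked after their values were seen. CDKN2A, a cell cycle inhibitor gene that A549 is known to have lost by deletion, had 2111 to 2574 counts in the control libraries and 2041 to 3370 in the B35 libraries. Only 7.88% of its exon bases lie in exons of another gene, CDKN2B-AS1. These counts go against the label, so the cells are called the cells labelled A549 here, and their identity was not tested further. A549 is also known for a KEAP1 mutation that keeps NRF2 active, which gene counts cannot show. The NRF2 target AKR1B10 averaged 1.103 ± 0.439 CPM in controls and 0.619 ± 0.173 CPM with B35 (CPM, counts scaled to a common total, with SD, n = 3), and the target NR0B1 had no count in any library, where a count of 0 allows up to 3 counts per library. AKR1B10 has a near-identical relative that can share its reads. Other NRF2 targets were abundant in controls, among them TXNRD1 at 864 ± 18.5 CPM, AKR1B1 at 816 ± 10.1 CPM, NQO1 at 292 ± 8.74 CPM, SLC7A11 at 113 ± 11.8 CPM and AKR1C3 at 90.8 ± 6.65 CPM. Further targets were low, with AKR1C1 at 13.4 ± 2.27 CPM and ALDH3A1 at 8.39 ± 0.775 CPM in controls, and AKR1C2 at 2 to 13 counts per library. CYP4F11 had 0 or 1 count per library, and CES1 and UGT1A6 had none. Relatives or shared exons can share reads with AKR1C1, AKR1C2 and UGT1A6.

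Markers of epithelial cells were present unevenly. The keratin gene KRT7 averaged 892 ± 6.95 CPM in controls, whereas KRT19 had 2 to 8 counts per library and the cadherin gene CDH1 averaged 1.34 ± 0.219 CPM. The 6 epithelial markers summed to 2986 to 3077 CPM in the control libraries and 2323 to 2705 CPM in the B35 libraries. Of the 5 tested, EPCAM was higher with B35 and KRT8 was lower. The 5 fibroblast markers summed to 26.5 to 26.7 CPM in controls and 20.4 to 23.3 CPM with B35, most of it from COL1A1. The 3 endothelial markers summed to 5.73 to 9.04 CPM and 7.56 to 9.44 CPM, and the 5 immune markers to 1.23 to 1.47 CPM and 1.24 to 1.45 CPM, with CD3E, CD68 and LYZ at 0 counts. The part of these markers in the results was not tested.

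To show where the letters of an antioxidant response element occur near these genes, RefSeq promoter windows (GRCh38.p14, 250 bases before to 50 after a start site) were searched on both strands for TGACNNNGC, the core of the element, and for TGAGNNNGC, a close form of it. A stretch cannot match both forms on 1 strand. The table held 10 windows for 7 of the 9 genes, HMOX1 and PRDX1 having no entry. Of these windows 7 held at least 1 match, in 6 genes, with 12 matches in all. Either form occurred in 29.1% of the 35116 windows in the table, TGACNNNGC in 13.3% and TGAGNNNGC in 18.3%. The 7 stretches shown are 1 or 2 for each gene with a match, so that the core letters can be compared. Each reads 5′ to 3′ on the strand given, with the match in capitals and 10 flanking bases on each side.
TXNRD1, chr12:104215670-104215698, plus strand: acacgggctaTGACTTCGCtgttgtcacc
TXNRD1, chr12:104286920-104286948, minus strand: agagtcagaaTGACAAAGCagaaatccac
GPX2, chr14:64942849-64942877, plus strand: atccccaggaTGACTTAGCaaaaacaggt
KEAP1, chr19:10502784-10502812, plus strand: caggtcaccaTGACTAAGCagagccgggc
OSGIN1, chr16:83953131-83953159, minus strand: ttcataagcgTGAGTCAGCaggggcccgt
NQO1, chr16:69726661-69726689, plus strand: cggaggatgcTGAGGCTGCagctccagga
NFE2L2, chr2:177264259-177264287, minus strand: gtctggggacTGAGCCCGCtcgcgtgggc
The capitals lay 91 to 99 bases upstream of the start site in the first TXNRD1 stretch, 94 to 102 bases upstream in the second, 114 to 122 in GPX2 and 23 to 31 in KEAP1. They lay 91 to 99 bases upstream in OSGIN1, 111 to 119 in NQO1 and 138 to 146 in NFE2L2. TXNRD1, the gene with 2 stretches shown, NFE2L2 and KEAP1 each have a pair of listed start sites. Each distance is from the site whose window held the stretch. The other window of NFE2L2 and that of KEAP1 held neither form. The SRXN1 window held neither form. A match is a description of letters, not a binding site, and an element outside the window would not be seen. Over all tested genes with a window, 16.6% of the 4120 genes with a match changed with B35, and 16.1% of the 6140 genes without one.

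The 9 genes spanned a wide range of expression per length, as the plot of FPKM (counts scaled for exon length and library size) shows. In control cells PRDX1 stood highest at 507 ± 18.1 FPKM (SD, n = 3), above 99.6% of the genes tested. TXNRD1 followed at 128 ± 2.92 FPKM and NQO1 at 89.4 ± 2.76 FPKM. The thioredoxin and quinone enzymes thus lay above both regulators, with NFE2L2 at 26.2 ± 3.50 FPKM and KEAP1 at 14.1 ± 0.853 FPKM. HMOX1 at 14.0 ± 0.254 FPKM did not differ from KEAP1 beyond the spread of the libraries. OSGIN1 at 4.79 ± 0.126 FPKM and SRXN1 at 2.04 ± 0.197 FPKM were low, and GPX2 was near 0. With B35 the order was the same except that HMOX1 at 14.8 ± 1.93 FPKM came before KEAP1 at 12.4 ± 2.13 FPKM, again within the spread.

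**Figure D1:**
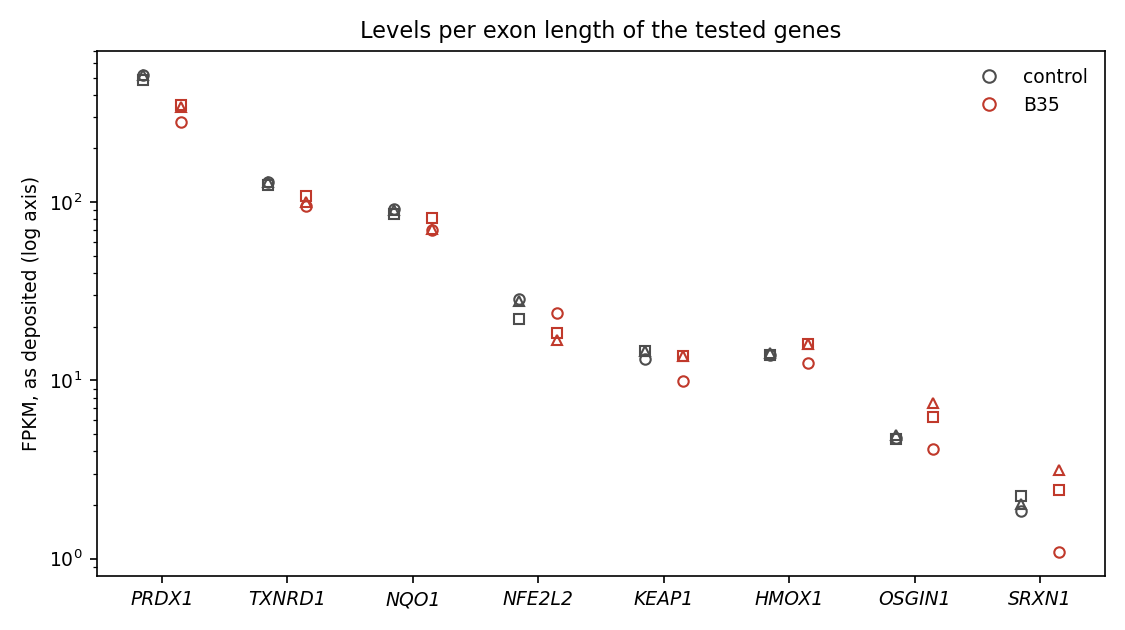
Deposited FPKM of the 8 tested genes in each library on a log axis, controls (grey) and B35 (red) side by side, with each point 1 library and circles, squares and triangles for replicates 1, 2 and 3. PRDX1, TXNRD1 and NQO1 lie highest in both groups, KEAP1 and HMOX1 overlap, and SRXN1 is lowest.

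The regulators were examined first. NFE2L2 (ENSG00000116044, chr2:177227595-177392697, minus strand, hg38) encodes NRF2 itself. Its level was 173, 134 and 166 CPM in control replicates 1, 2 and 3 and 145, 111 and 102 CPM in B35 replicates 1, 2 and 3. B35 replicate 1 lay above control replicate 2, so the groups overlapped. The log2 fold change was -0.40 ± 0.14 (SE), with a 95% interval of -0.71 to -0.09, and the gene did not pass (edgeR quasi-likelihood test, unadjusted p = 0.0169, adjusted p = 0.0815). Without B35 replicate 1 the gene passed, with a log2 fold change of -0.56 and an adjusted p of 0.00398 in edgeR. It also passed in DESeq2 with an adjusted p of 0.0346, and in edgeR with no filter beyond 1 count (adjusted p = 0.00487) and with GC and length trends removed (adjusted p = 0.00799). In all, NFE2L2 passed in only 5 of 16 alternatives. It did not pass with any other library left out (edgeR adjusted p = 0.0597 to 0.246), with upper-quartile scaling (edgeR adjusted p = 0.114) or in limma-voom (adjusted p = 0.0782). In bulk RNA such a difference may lie in fewer cells of a type or in less RNA per cell, which cannot be told apart. NRF2 is controlled mainly through degradation of the protein, which these counts do not measure.

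KEAP1 (ENSG00000079999, chr19:10486120-10503741, minus strand) encodes the adaptor that presents NRF2 for degradation. Controls had 49.7, 55.5 and 54.8 CPM and B35 libraries 38.1, 51.8 and 52.5 CPM. B35 replicate 1 was low and the other 2 B35 libraries lay within the control range. The log2 fold change of -0.17 ± 0.13 had a 95% interval of -0.45 to 0.12 and an edgeR adjusted p of 0.416. With trends on GC content and gene length removed it was -0.30 with an edgeR adjusted p of 0.0139, and without B35 replicate 1 it was -0.033 with an edgeR adjusted p of 0.825.

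The classical target NQO1 (ENSG00000181019, chr16:69706996-69726951, minus strand) encodes a quinone reductase that is widely read as a marker of NRF2 activity. It stood at 299.5, 282 and 295 CPM in controls and at 230, 267 and 236 CPM with B35. All 3 B35 libraries were below all 3 controls, an arrangement that 17.5% of the genes tested showed in this direction and 36.3% in either. The log2 fold change was -0.26 ± 0.090, with a 95% interval of -0.46 to -0.06, and missed the threshold (edgeR adjusted p = 0.0777). DESeq2 gave an adjusted p of 0.0498, and the fit with GC and length trends removed gave 0.0156 in edgeR. These were the only 2 of 16 alternatives in which NQO1 passed. With 1 library left out the edgeR adjusted p ran from 0.0559 to 0.245, and with upper-quartile scaling it was 0.103.

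The thioredoxin arm held both members that passed. TXNRD1 (ENSG00000198431, chr12:104215779-104350305, plus strand) encodes cytosolic thioredoxin reductase, a selenoprotein that returns electrons from NADPH to thioredoxin. Its levels were 877, 843 and 872 CPM in controls and 649, 727 and 683 CPM with B35, with no overlap. The gene was 1.26-fold lower, a log2 fold change of -0.33 ± 0.084 (edgeR adjusted p = 0.0240). The call was lost when control replicate 1, 2 or 3 was left out (edgeR adjusted p = 0.0861, 0.0685 and 0.124), and likewise for B35 replicate 3 (edgeR adjusted p = 0.0534).

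PRDX1 (ENSG00000117450, chr1:45511036-45523047, minus strand) encodes a peroxiredoxin, an abundant thiol peroxidase that thioredoxin recharges. It read 794, 745 and 787 CPM in controls and 436, 540 and 528 CPM with B35, so every B35 library was well below every control. The gene was 1.55-fold lower, a log2 fold change of -0.63 ± 0.10 (edgeR adjusted p = 0.00290), the largest change among the 8 genes tested. It passed with each library left out in turn. Of its exon bases 24.9% lie opposite MMACHC, which had 210 to 254 counts per library, and the strand setting of the counting was not given in the sources used here.

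SRXN1 (ENSG00000271303, chr20:646615-653370, minus strand) encodes sulfiredoxin, which repairs overoxidised peroxiredoxins. Controls had 5.02, 6.09 and 5.47 CPM, and B35 libraries had 2.996, 6.60 and 8.64 CPM. The B35 libraries lay on both sides of the controls, replicate 1 below them and replicates 2 and 3 above. The log2 fold change of 0.14 ± 0.31 had a 95% interval of -0.53 to 0.82 (edgeR adjusted p = 0.802), and without B35 replicate 3 it was -0.20. Of its 2698 exon bases, 2292 are shared with AL121758.1 on the same strand. That gene had 0 to 7 counts per library, and the handling of reads in shared exons was not given in the sources used here, so the level of SRXN1 is uncertain.

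HMOX1 (ENSG00000100292, chr22:35380361-35394214, plus strand) encodes the inducible haem oxygenase, which is repressed by BACH1 as well as induced by NRF2. Controls were close together at 33.5, 33.6 and 34.4 CPM, and B35 libraries read 30.7, 38.6 and 39.2 CPM. The B35 libraries again fell on both sides of the controls. Its log2 fold change was 0.10 ± 0.12, with a 95% interval of -0.16 to 0.35 (edgeR adjusted p = 0.616), and it was -0.018 with GC and length trends removed.

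OSGIN1 (ENSG00000140961, chr16:83948282-83966332, plus strand), an oxidative stress-induced growth inhibitor, showed the same arrangement. It had 16.6, 16.3 and 17.1 CPM in controls and 14.6, 21.9 and 26.6 CPM with B35. A log2 fold change of 0.34 ± 0.19 had a 95% interval of -0.07 to 0.75 and did not pass (edgeR adjusted p = 0.251). Without B35 replicate 1 it was 0.54 and passed with an edgeR adjusted p of 0.00812, and without B35 replicate 3 it was 0.13 with an edgeR adjusted p of 0.665.

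GPX2 (ENSG00000176153, chr14:64939152-64942905, minus strand) encodes an epithelial glutathione peroxidase. It had 0, 0 and 2 counts in the control libraries and 2, 2 and 3 counts in the B35 libraries. All 6 values are at or under the floor of 3 counts per library, so a difference was not detectable at this depth.

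**Figure D2:**
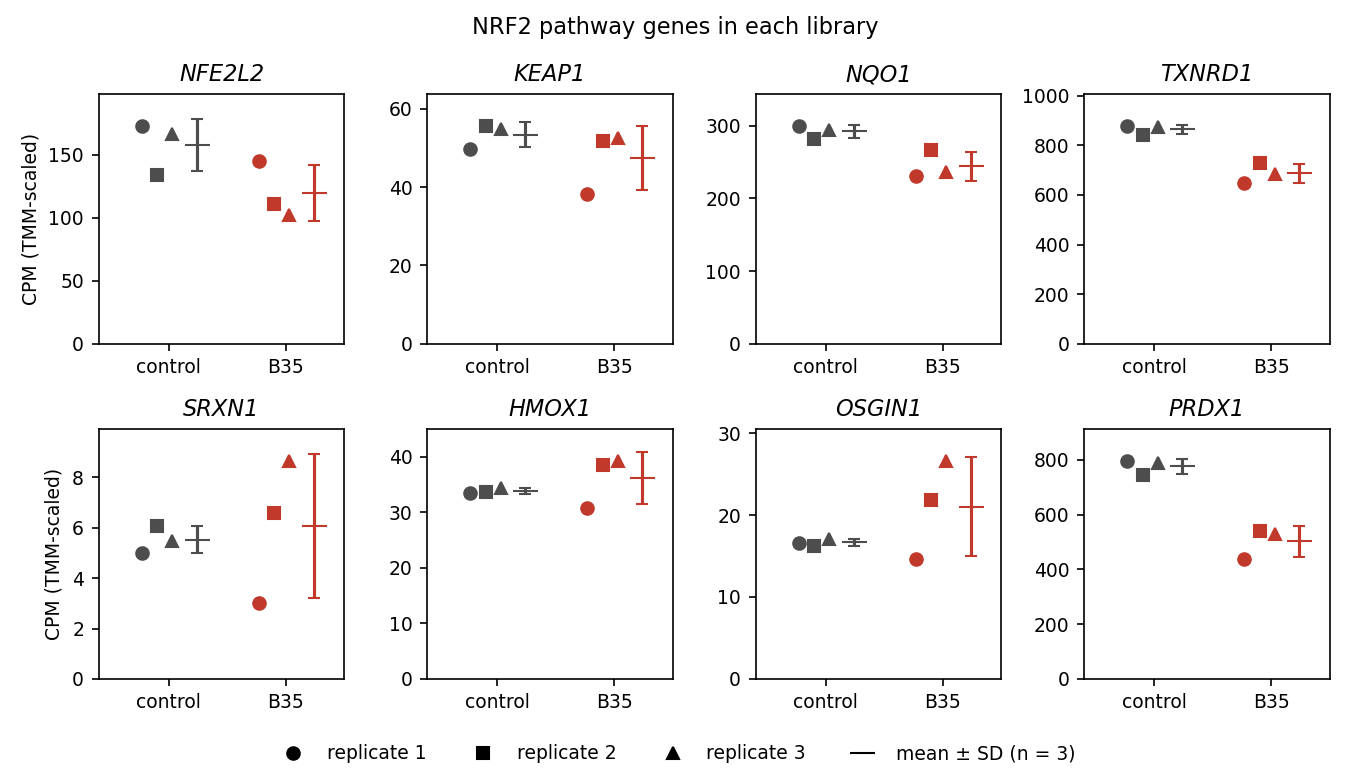
Level of each gene in TMM-scaled CPM for the 3 control and 3 B35 libraries, 1 panel for each of the 8 tested genes, each point 1 library and the line the group mean with error bars of 1 SD. PRDX1, TXNRD1 and NQO1 show no overlap between groups. In every panel except that of NFE2L2, B35 replicate 1 is the lowest of the 6 libraries.

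Of the 8 members tested, 2 passed, both lower with B35, against 6.59% of all genes lower and 15.4% changed in either direction. At an unadjusted p under 0.05 there were 4, all lower, in edgeR, beside 14.1% of all genes lower at that level, and DESeq2 called 4, all lower, beside 8.05% of all genes lower. The median log2 fold change of the 8 was -0.21, beside 0.01 over all genes tested, and -0.13 without B35 replicate 1. Without control replicate 1, 2 or 3, or without B35 replicate 3, only PRDX1 passed. Over all genes 1079, 1286, 881 and 1590 passed in these fits, beside 2276 in the reported fit. Without B35 replicate 1, 4 genes passed, 1 higher and 3 lower, beside 3342 of 15074 over all genes. Calls of the lists below with a library left out stand beside these same totals.

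**Figure D3:**
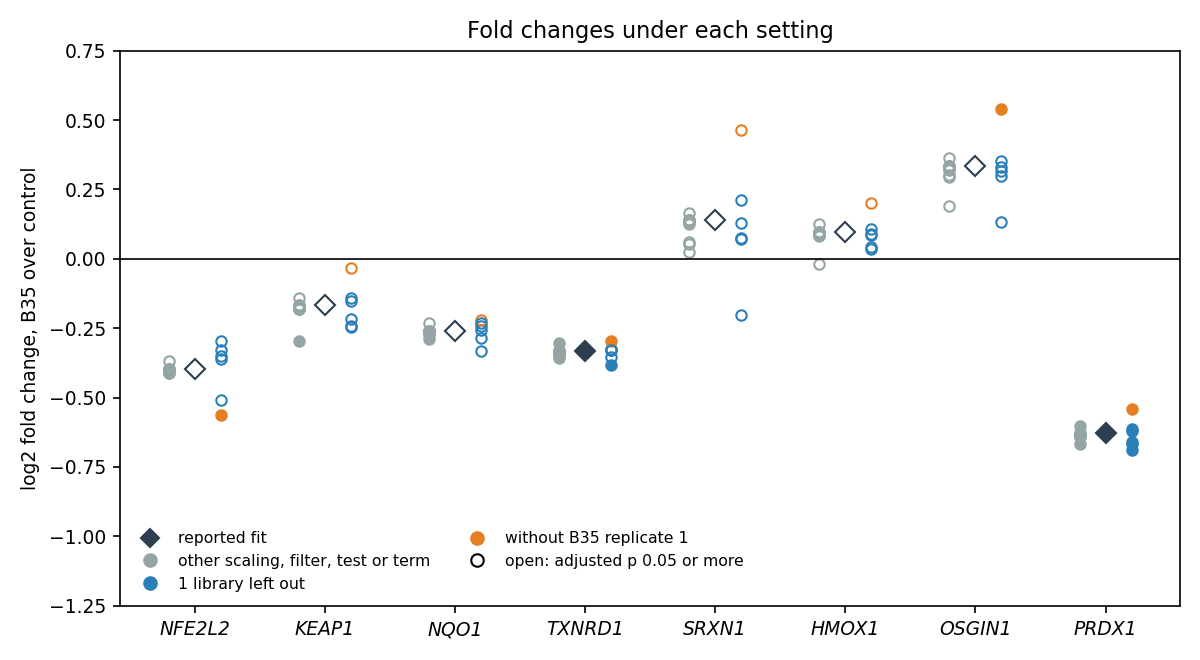
Log2 fold change (B35 over control) of the 8 tested genes in the reported fit (diamonds), under other scalings, filters, tests and terms (grey) and with 1 library left out (blue, or orange for B35 replicate 1), filled where the adjusted p is under 0.05. NFE2L2, KEAP1, NQO1, TXNRD1 and PRDX1 stay below 0 throughout, OSGIN1 stays above it, and SRXN1 and HMOX1 cross it. NFE2L2, SRXN1, HMOX1 and OSGIN1 lie farthest from 0 without B35 replicate 1.

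The partners and regulators of NRF2 came next. Of 20 genes 19 were tested, 1 rose and 2 fell, with a median log2 fold change of -0.07. The share changed, 15.8%, lay near the 15.4% of all genes tested. MAFF, a small MAF protein that can pair with NRF2, rose from 43.1 ± 4.19 to 57.4 ± 6.78 CPM (edgeR adjusted p = 0.0378). DPP3, a peptidase that binds KEAP1 and so competes with NRF2, fell from 104 ± 0.893 to 67.6 ± 7.26 CPM (edgeR adjusted p = 0.00306). RBX1, a subunit of the CUL3 ligase, fell from 39.3 ± 1.61 to 31.2 ± 1.91 CPM (edgeR adjusted p = 0.0465). The calls of MAFF and RBX1 were lost without any 1 of the 3 controls, B35 replicate 2 or B35 replicate 3, with edgeR adjusted p of 0.0528 to 0.184 and 0.0609 to 0.154. That of RBX1 was also lost with upper-quartile scaling (edgeR adjusted p = 0.0632) and with no filter beyond 1 count (edgeR adjusted p = 0.0687). Without B35 replicate 1 the list had 5 calls. BACH1, the repressor that competes with NRF2 at its elements, read 91.6 ± 6.46 and 116 ± 13.6 CPM and did not pass (edgeR adjusted p = 0.0531).

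Other known targets of NRF2 changed in both directions. Of 37 genes 32 were tested, and 11 passed, 3 higher and 8 lower, which is 34.4% beside 15.4% of all genes. The list's median log2 fold change was -0.10, and it was -0.039 without B35 replicate 1 and -0.17 without B35 replicate 2. The count of calls was 6, 7 and 4 without control replicates 1, 2 and 3 and 6 without B35 replicate 3.

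Of those that passed, 3 rose. ABCC3, an exporter of conjugated compounds, rose 2.99-fold, from 16.4, 19.4 and 19.1 CPM in controls to 57.8, 49.4 and 57.2 CPM with B35. Its log2 fold change was 1.58 ± 0.12 (edgeR adjusted p = 4.28e-05). AKR1C1, an aldo-keto reductase, rose 2.38-fold from 13.4 ± 2.27 to 31.9 ± 1.28 CPM (edgeR adjusted p = 0.000407). Its near-identical relatives can share reads with it, so its level is uncertain. The aldose reductase gene AKR1B1 also rose, from 816 ± 10.1 to 1122 ± 133 CPM.

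The other 8 that passed fell. PIR, an iron-binding nuclear protein, fell from 67.3 ± 1.26 to 41.6 ± 4.72 CPM (edgeR adjusted p = 0.00223). Lower as well were TALDO1 of the pentose phosphate pathway, the NADPH-forming malic enzyme ME1, glutathione reductase GSR, the glutathione synthesis subunit GCLM, the ferritin light chain FTL and the peroxiredoxin PRDX6. Their log2 fold changes ran from -0.58 for ME1 to -0.32 for FTL. GCLC, the catalytic partner of GCLM, read 57.9 ± 2.64 and 65.5 ± 1.63 CPM and did not pass (edgeR adjusted p = 0.207). The cystine importer SLC7A11 read 113 ± 11.8 and 122 ± 13.2 CPM (edgeR adjusted p = 0.556).

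**Figure D4:**
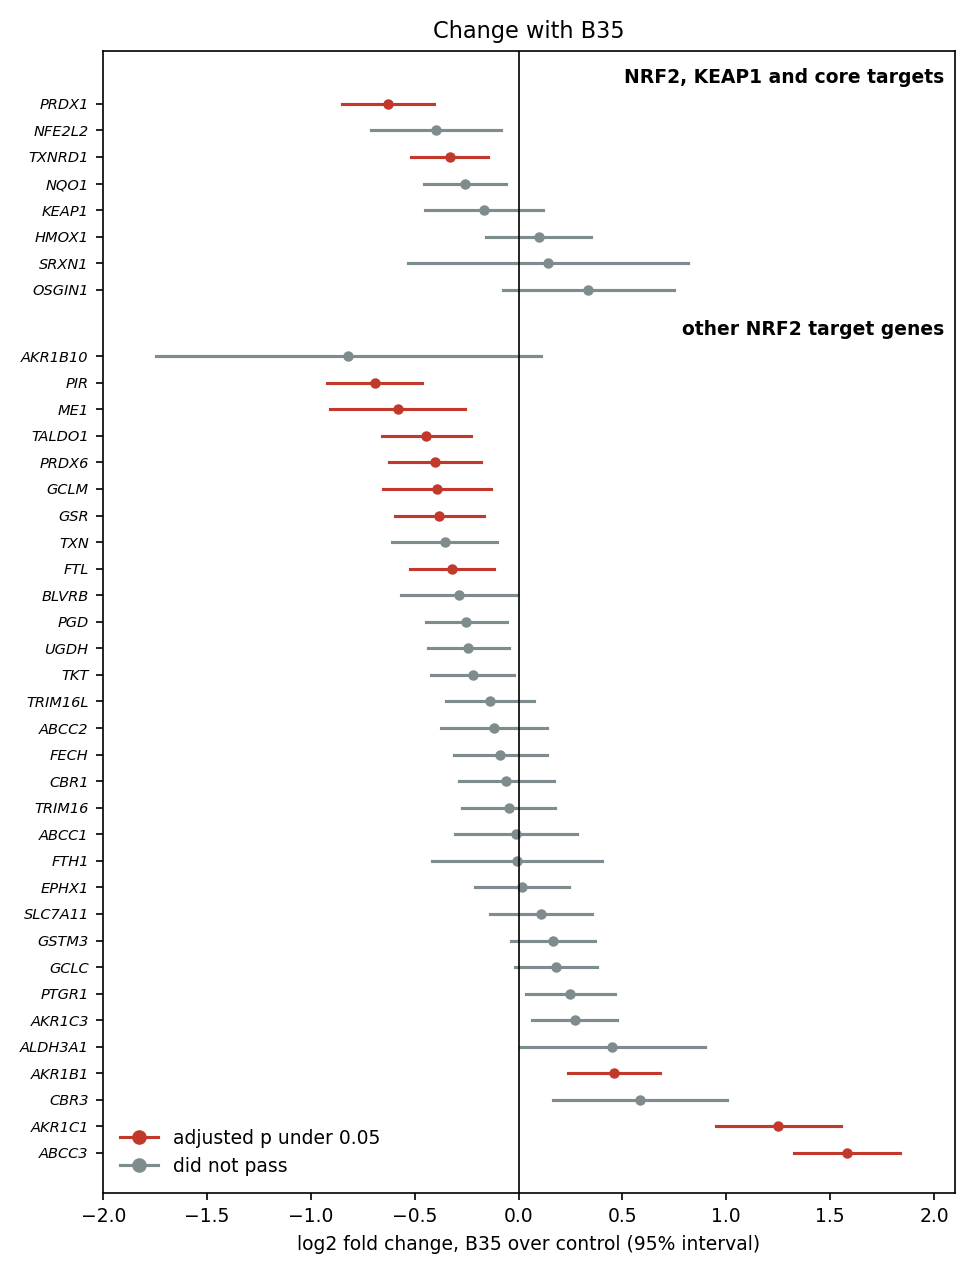
Log2 fold change (B35 over control) with 95% interval for the 8 tested members and other tested NRF2 targets that are reported here, red where the adjusted p is under 0.05. PRDX1 and TXNRD1 are red and below 0, and ABCC3 and AKR1C1 lie farthest above 0.

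Genes that work with TXNRD1 and PRDX1 were read from a list of 19, of which 18 were tested. Of these 1 rose and 5 fell, or 33.3% changed beside 15.4% of all genes, with a median log2 fold change of -0.19. TXNIP, a protein that binds and inhibits thioredoxin, rose to 168, 163 and 171 CPM from control levels of 39.5, 41.0 and 41.6 CPM. That is 4.11-fold higher (edgeR adjusted p = 1.01e-06). SESN2, a stress-induced sestrin, fell from 46.2 ± 3.68 to 24.9 ± 3.45 CPM (edgeR adjusted p = 0.00139), and the mitochondrial glutaredoxin GLRX2 fell from 54.8 ± 3.65 to 36.2 ± 1.07 CPM (edgeR adjusted p = 0.00302). PRDX6 fell from 389 ± 17.5 to 294 ± 32.0 CPM (edgeR adjusted p = 0.0217), a call lost when control replicate 1, control replicate 3 or B35 replicate 3 was left out (edgeR adjusted p = 0.0786, 0.115 and 0.0591). The mitochondrial PRDX3 and TXNRD2 also fell. Thioredoxin itself, TXN, read 485 ± 21.6 and 379 ± 58.2 CPM and did not pass (edgeR adjusted p = 0.0577). Leaving out control replicate 1, control replicate 3 or B35 replicate 3 left the list with 3 calls each time.

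Among glutathione peroxidases, superoxide dismutases and catalase, 7 of 11 genes were tested, 1 rose and 2 fell, or 42.9% changed beside 15.4% of all genes. The median log2 fold change was 0.03, and it was -0.022 without control replicate 3. SOD2, the mitochondrial superoxide dismutase, rose 2.65-fold (edgeR adjusted p = 2.47e-05). A second SOD2 identifier shares 5.12% of the exon bases of the one read here, ENSG00000112096, which was taken for its higher counts. Cytosolic SOD1 fell from 285 ± 8.25 to 202 ± 44.2 CPM (edgeR adjusted p = 0.0368) and peroxisomal catalase, CAT, from 104 ± 2.95 to 84.3 ± 1.49 CPM (edgeR adjusted p = 0.0375). Both calls were lost without any 1 of the 3 controls or B35 replicate 3, with edgeR adjusted p of 0.0546 to 0.110 for SOD1 and 0.0874 to 0.186 for CAT, and that of CAT also without B35 replicate 2 (edgeR adjusted p = 0.0861), with upper-quartile scaling (edgeR adjusted p = 0.0563) and with no filter beyond 1 count (edgeR adjusted p = 0.0630). Without B35 replicate 1 the list had 5 calls. Among haem and iron genes, 11 of 12 were tested and 1 passed, FTL, which is also among the other NRF2 targets above. The share changed was 9.09% beside 15.4% of all genes. The median log2 fold change was -0.09. That median was -0.039 and -0.20 without B35 replicates 1 and 2. FTL read 2369 ± 171 CPM in controls and 1896 ± 108 CPM with B35 (edgeR adjusted p = 0.0375), and its call was lost without any 1 control or B35 replicate 3 (edgeR adjusted p = 0.0536 to 0.160). Without B35 replicate 1 this list had 2 calls.

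The genes closest in pattern to NFE2L2 and to PRDX1 were found by distance. For each of 9845 genes with a mean of at least 10 CPM, log2 levels were centred over the 6 libraries, and the root-mean-square difference from the reference gene was taken. ATAD2, a chromatin ATPase, lay nearest to NFE2L2 at 0.03 log2 units, followed by CISD1 and PUS7, both at 0.05. ATAD2 read 173, 130 and 165 CPM in controls and 143, 106 and 103 CPM with B35, the same low control replicate 2 and high B35 replicate 1 as NFE2L2. Among the genes nearest to PRDX1 were the RNA-binding protein gene RBM14 and PDCL3, both at 0.03 log2 units. TXNRD1 ranked 491 and NQO1 1006 by distance from PRDX1. The libraries are shared by all genes, so these distances are a description with no test.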

How the data were processed

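RNA was sequenced from 6 libraries, 3 per group. Reads were aligned with HISAT2 2.0.5 to hg38 and counted with featureCounts 1.5.0-p3, per the submitters' processing notes, while the strand setting was not given in the sources used here. The authors deposited whole-number counts per gene and FPKM values per gene. FPKM served only to compare levels between genes, and the tests used the counts. All 58735 identifiers matched GENCODE 29, which gave symbols, coordinates and exon overlaps.

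The fit ran in edgeR 4.0.16 (R 4.3.3, glmQLFit and glmQLFTest). Genes were kept by filterByExpr with at least 10 counts and a total of 15, and libraries were scaled by TMM (factors 0.979 to 1.03). Tests were two-sided, with Benjamini-Hochberg adjustment over 14773 genes and a threshold of 0.05. The SE is the log2 fold change divided by the square root of F. CPM are TMM-scaled counts on a common library total, given as mean ± SD over 3 libraries. Replicates were not copies of each other (chi-square over its degrees of freedom 4.46 to 32.3), and each counted as 1 sample. The largest values, 26.3 and 32.3, were those of pairs with B35 replicate 1. Such differences cannot tell if libraries stem from different cultures.

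The members and lists were chosen with earlier results of these data known. Some lists share genes, among them FTL, PRDX6 and TXNRD2, so their shares of changed genes are not separate results. The text names all members, up to 4 passing genes of each list by smallest adjusted p, and 3 nearest genes by pattern for NFE2L2 and for the member with the smallest adjusted p (offset 0.5 CPM). One gene that this rule took is not reported here. Other named genes were chosen after their values were seen. Promoter windows came from RefSeq. The test was checked on simulated data. Alternatives were RLE or upper-quartile in place of TMM, a filter of only 1 count, a mean CPM of 1 or more, DESeq2 1.42.0, limma-voom (limma 3.58.1), robust dispersion, glmTreat at 1.5-fold, a replicate block, each library left out, and removal of GC and length trends (mgcv 1.9.3). Python 3.11.15, pandas 2.3.3 and matplotlib 3.10.9 made tables and plots.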

Additional observations from a re-analysis of the deposited data

How the results depend on the processing

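The number of changed genes over all tested, 2276 (1303 higher, 973 lower), was 176 with glmTreat against 1.5-fold and 4270 (1706 higher, 2564 lower) with GC and length trends removed, and it ran from 881 to 3342 with each library left out in turn. Changed members, 2, were 4 in DESeq2, 5 with GC and length trends removed and 1 to 4 with a library left out. glmTreat called 0 of them, with 0 at an unadjusted p under 0.05. Changed genes among the other NRF2 targets, 11, were 2 with glmTreat, 17 with GC and length trends removed and 4 to 16 with a library left out. glmTreat asks for a larger change, and the cause of the other moves was not tested. The log2 fold change turned for SRXN1 without B35 replicate 3 (-0.20, beside -0.20 to 0.46 over all libraries left out) and for HMOX1 with GC and length trends removed (-0.018), and the cause was not tested. With GC and length trends removed, calls rose to 8 among partners and regulators, 10 in the thioredoxin and peroxiredoxin list and 4 among haem and iron genes. Same-numbered libraries did not deviate together throughout (correlations 0.163, 0.0162 and -0.0630). With 3 libraries per group these correlations cannot tell if a number marks a shared culture or day, and no label says so. With the replicate block 2855 genes, 3 members, 11 other targets and 6 partners and regulators passed. NFE2L2 passed with the block (edgeR adjusted p = 0.0189) and FTL did not (edgeR adjusted p = 0.0646). ABCC3, AKR1C1, TXNIP and SOD2 passed in all 16 alternatives, and PRDX1, DPP3, PIR, SESN2 and GLRX2 in 15, all but glmTreat. Depth limits GPX2, at 0 to 3 counts.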

Other observations

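TXNRD1 and GPX2 are selenoproteins, and the other selenoprotein genes moved both ways. Of 23 listed, 20 were tested, 2 rose and 3 fell, or 25.0% changed beside 15.4% of all genes, with a median log2 fold change of -0.05 that was 0.0089 without B35 replicate 1. DIO2, an enzyme that activates thyroid hormone, fell from 40.5 ± 1.96 to 23.7 ± 1.72 CPM (edgeR adjusted p = 0.00129). SELENOP, a secreted selenium carrier, rose from 9.05 ± 0.775 to 15.8 ± 2.82 CPM (edgeR adjusted p = 0.00745), although 25.5% of its exon bases lie opposite CCDC152. SELENOI, an enzyme of phospholipid synthesis, fell from 64.5 ± 2.92 to 48.0 ± 1.82 CPM (edgeR adjusted p = 0.0118), and SELENON, a protein of the endoplasmic reticulum, rose from 49.4 ± 4.63 to 65.6 ± 3.46 CPM (edgeR adjusted p = 0.0221). The call of SELENOI was lost without control replicate 2 or 3, at 0.0570 and 0.0677 (adjusted p, edgeR), and that of SELENON without any 1 control or B35 replicate 2 or 3 (edgeR adjusted p = 0.0521 to 0.1004). TXNRD2 fell too. The list had 3, 2 and 2 calls without control replicates 1, 2 and 3, and 3 without B35 replicate 3.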
